A study of Mus musculus with 4 samples.

Results

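Oxidative phosphorylation was followed through 102 genes in single-cell RNA profiles of kidney glomeruli from young and aged mice. The members were the genes whose symbols start with Nduf, Uqcr, Cox4 to Cox8 or Atp5, encoded in the nucleus, or with mt-Nd, mt-Co, mt-Cyt or mt-Atp, encoded in mitochondrial DNA. After 7 pseudogenes were left out, 102 of the 52636 genes in the files belonged to the set. The nuclear genome held 89 of them: 36 subunits of complex I, 8 of complex III, 18 of complex IV and 15 of complex V, with 9 assembly factors of complex I and 3 paralogs. The mitochondrial genome held 13: 7 subunits of complex I, 1 of complex III, 3 of complex IV and 2 of complex V. The rule goes by symbol, so subunits listed under other names, such as Cyc1 of complex III, were outside it. Glomeruli were drawn from kidneys of untreated mice by perfusing magnetic beads, then digested with enzymes to single cells for droplet 3′ sequencing. There were 2 libraries from young and 2 from aged animals. The labels give the age only as young or aged, and give neither strain, sex, age in months nor the number of mice behind a library. Nothing in them says that the replicates came from separate animals, so p-values measure the spread between these libraries, which may be technical.

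The respiratory chain passes electrons from NADH through complex I, ubiquinone, complex III and cytochrome c to complex IV, which reduces oxygen. Complexes I, III and IV pump protons across the inner mitochondrial membrane, and complex V, the ATP synthase, uses the gradient to make ATP. Complex II has only nuclear subunits and pumps no protons. Each of the other complexes is built from subunits of both genomes, which are transcribed by separate polymerases. In the glomerulus, podocytes wrap the capillaries, fenestrated endothelial cells line them, and mesangial cells hold the loops together.

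The 4 libraries held 5532 to 10621 barcodes and 18457791 to 42046542 UMIs, unique molecular identifiers that each stand for 1 captured RNA molecule. After filtering, 5035 to 9187 barcodes a library were kept. Any 2 libraries shared 9 to 31 barcode sequences, at most 0.346% of the smaller one. Young replicate 2 stood apart: its kept barcodes had a median of 1258 UMIs against 2714 to 3734 in the others, and 57.2% of them fell in clusters that mixed markers of unrelated cell types, against 2.65% to 3.32%. Those clusters were not used, and the calls and medians of each class are also given without this library. Cell classes were rebuilt here from marker genes, and a class is called podocyte-like and so on for that reason. Values below follow the order young replicate 1, young replicate 2, aged replicate 1, aged replicate 2 unless stated. The podocyte-like class counted 1743, 584, 984 and 652 cells, the endothelial-like class 2394, 1369, 6020 and 4305, the mesangial-like class 367, 237, 690 and 545, and the parietal epithelial-like class 34, 87, 55 and 36. Each of the 4 classes carried its own markers, given here in raw CPM (UMIs per 1000000 UMIs of a class and library). For example, 8 podocyte markers summed to 20280 to 22340 in podocyte-like cells and 238 to 807 in mesangial-like cells. In parietal epithelial-like cells 8 markers of their own summed to 1899, 3184, 2071 and 2446. There 7 smooth muscle and renin markers summed to 1932, 2604, 2212 and 2574, so this class was less clearly set apart.

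Nuclear member messages took a larger part of the RNA in podocyte-like than in endothelial-like or mesangial-like cells. Here, as elsewhere between classes, the levels are described and not tested. In podocyte-like cells the 89 nuclear members made up 2.60%, 2.18%, 2.51% and 2.40% of all UMIs. In endothelial-like cells these shares were 1.58%, 1.37%, 1.53% and 1.38%, and in mesangial-like cells 1.70%, 1.53%, 1.84% and 1.65%. All 4 podocyte-like values lay above all values of both other classes. The mesangial-like and endothelial-like ranges overlapped, although the mesangial-like share was the higher of the pair in every library. The Wilson 95% intervals were narrow, for example 1.52% to 1.55% for the lowest mesangial-like share, and cover counting error only. Replicate 1 was above replicate 2 at both ages in these 3 classes, and the young and aged ranges overlapped in each. Parietal epithelial-like cells, with 34 to 87 cells a library, gave 2.97%, 2.25%, 3.49% and 2.13%. The high value in aged replicate 1 came with a summed level of 11 tubule markers of 8459 raw CPM there, against 890, 168 and 88.7 in young replicates 1 and 2 and aged replicate 2 (Calb1 and Aqp2 were at 0). Tubule cells are rich in mitochondria, and the part of their RNA in that value was not tested.

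Mitochondrial messages followed another order of classes. The 13 mitochondrial members made up 1.58%, 1.47%, 1.32% and 1.43% of UMIs in podocyte-like cells and 1.02%, 1.03%, 0.959% and 1.00% in endothelial-like cells. In mesangial-like cells they made up 1.62%, 1.64%, 1.76% and 1.69%, above the podocyte-like value in every library. The number of mitochondrial per nuclear member UMIs was therefore 0.953 to 1.07 in mesangial-like cells, 0.626 to 0.754 in endothelial-like cells and 0.526 to 0.674 in podocyte-like cells, with no overlap between the first class and the other 2. Smooth muscle and renin-like cells, the other contractile class, had ratios of 0.766 to 0.966. B-cell-like cells had ratios of 0.913 to 1.43, and macrophage-like cells, present in number only in the aged libraries, 0.439 to 0.549. Most mitochondrial UMIs outside the members were ribosomal. Messages were 18.7%, 21.8%, 17.3% and 17.9% of all mitochondrial UMIs in endothelial-like cells and 40.9%, 42.6%, 35.5% and 37.1% in mesangial-like cells. In both classes both aged values lay below both young ones. In podocyte-like cells, at 33.2%, 37.5%, 36.7% and 36.2%, they did not. For 6 of the 13 mitochondrial members, over 50% of 60-base windows at the 3′ end recur in annotated pseudogenes. The shares and ratios of mitochondrial members therefore rest on less certain counts.

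**Figure D1:**
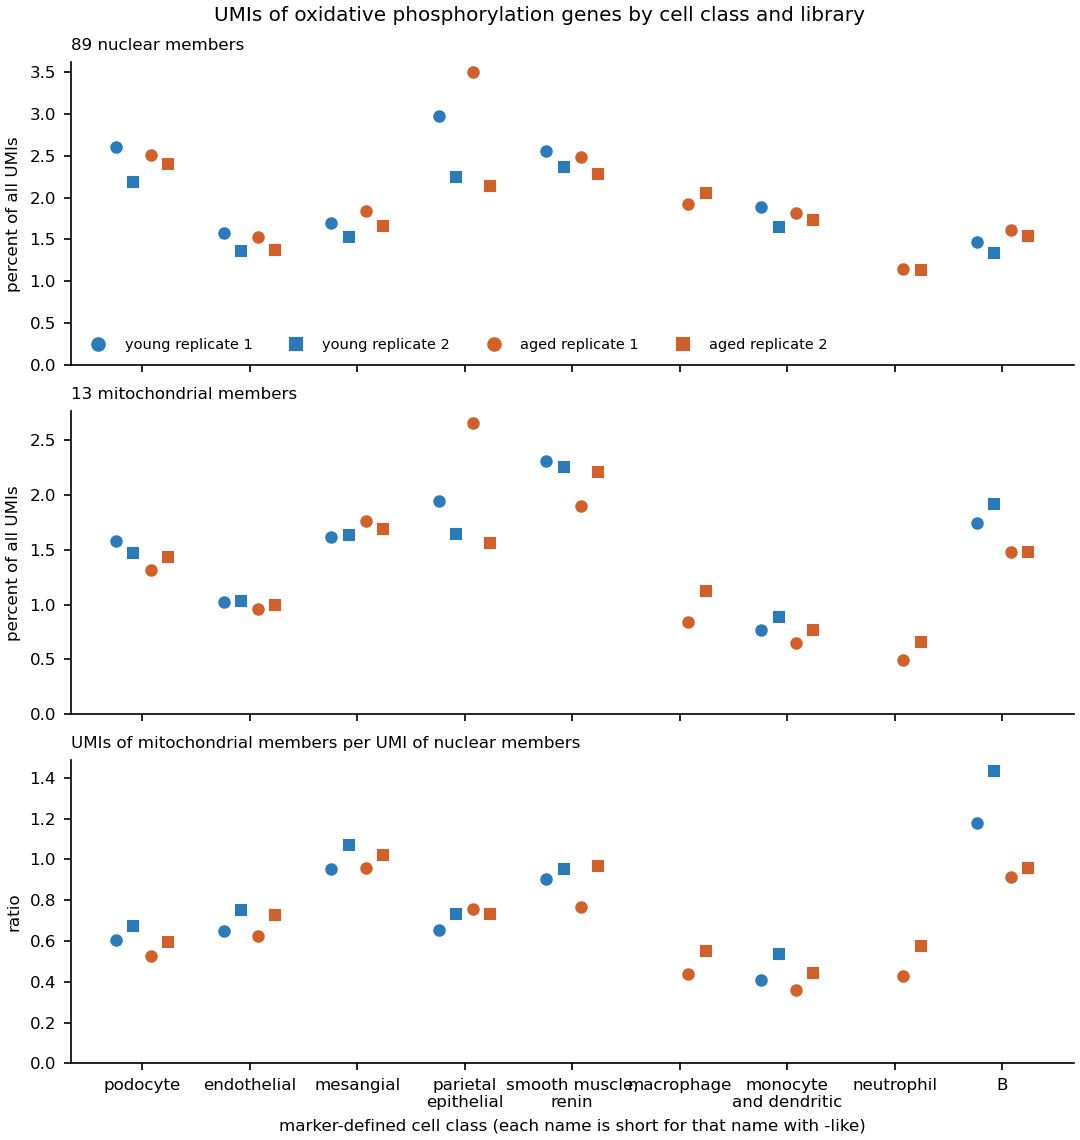
Share of all UMIs (percent) taken by the 89 nuclear members (top) and the 13 mitochondrial members (middle), and mitochondrial per nuclear member UMIs (bottom), by marker-defined class, each point 1 library with at least 20 cells. Podocyte-like cells (2.18% to 2.60% nuclear) lie above mesangial-like cells (1.53% to 1.84%) in the top panel, while the bottom panel reverses that order.

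The class order held for most members taken singly, but not for all. Of 87 nuclear members with any UMI, 78 were higher in podocyte-like than in endothelial-like cells in all 4 libraries, with a median ratio of 1.71, and 75 were higher than in mesangial-like cells, with a median ratio of 1.51. Only 4 were lower in podocyte-like than endothelial-like cells in every library: the restricted isoform genes Cox4i2 and Ndufa4l2, Uqcrh, the hinge protein of complex III, and Cox7a2l, which links complexes III and IV into supercomplexes. Mesangial-like cells were above endothelial-like cells in all 4 libraries for 52 of the 87 nuclear members and below for 14. Of the 13 mitochondrial members, 12 were higher in mesangial-like than in endothelial-like cells in all 4 libraries, with a median ratio of 1.59 over the 13. Podocyte-like cells were below mesangial-like cells in all 4 libraries for only 7 of the 13, and above them throughout for none. The exception to the 12 was mt-Nd6, a complex I subunit and the only protein encoded on the opposite strand of the mitochondrial genome. It was read at 36.4, 46.7, 38.5 and 41.5 CPM (raw CPM after trimmed-mean scaling between libraries) in endothelial-like cells, 28.1, 30.4, 40.9 and 38.8 in mesangial-like cells and 12.5, 20.9, 17.7 and 18.8 in podocyte-like cells. Its podocyte-like level was 0.427 of the endothelial-like level, whereas the 12 members of the other strand had ratios of 1.05 to 1.85.

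Isoforms of complex IV separated the contractile cells and the podocytes. Cox4i2 (ENSMUSG00000009876, chr2:152754173-152765037, GRCm38), the oxygen-sensitive alternative to the common subunit Cox4i1, was read at 349, 382, 254 and 156 raw CPM in smooth muscle and renin-like cells and at 24.6, 27.6, 15.2 and 9.72 in mesangial-like cells. It had 2 UMIs in all podocyte-like cells and 24 in all endothelial-like cells. Ndufa4l2 (chr10:127514967-127517154), a hypoxia-induced relative of the complex IV subunit Ndufa4, followed the same classes. It stood at 761, 578, 485 and 529 raw CPM in smooth muscle and renin-like cells and at 288, 209, 168 and 101 in mesangial-like cells, against at most 2.78 in endothelial-like and 0.652 in podocyte-like cells. For both genes each aged mesangial-like value was below each young one.

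Cox7b2, a tissue-restricted relative of Cox7b, was read in podocyte-like cells alone among the 9 classes, at 6.52, 4.35, 8.54 and 6.31 raw CPM from 50, 14, 48 and 31 UMIs. Over all libraries its podocyte-like level was at least 94.9-fold higher than in endothelial-like cells and at least 37.6-fold higher than in mesangial-like cells, set against the limit of 3 counts that a count of 0 allows over the class. Cox7a1, the heart and muscle isoform of subunit 7a, gave 42, 10, 25 and 14 UMIs in podocyte-like cells, or 4.25 raw CPM over all, against 0.539 in endothelial-like and 0.651 in mesangial-like cells. Parietal epithelial-like cells had 6 UMIs of Cox7a1, 5 of them in aged replicate 1. Cox6b2, the testis isoform of subunit 6b, was highest in parietal epithelial-like cells, at 54.3, 24, 79.5 and 49.2 raw CPM from 5 to 26 UMIs a library. The muscle isoforms Cox8b and Cox6a2 had no UMI in any of the 4 glomerular classes, and Cox8c had 4, all in podocyte-like cells. A count of 0 over podocyte-like cells allows up to 0.140 raw CPM. The common isoforms Cox4i1, Ndufa4, Cox6b1 and Cox7a2 were read in every class.

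**Figure D2:**
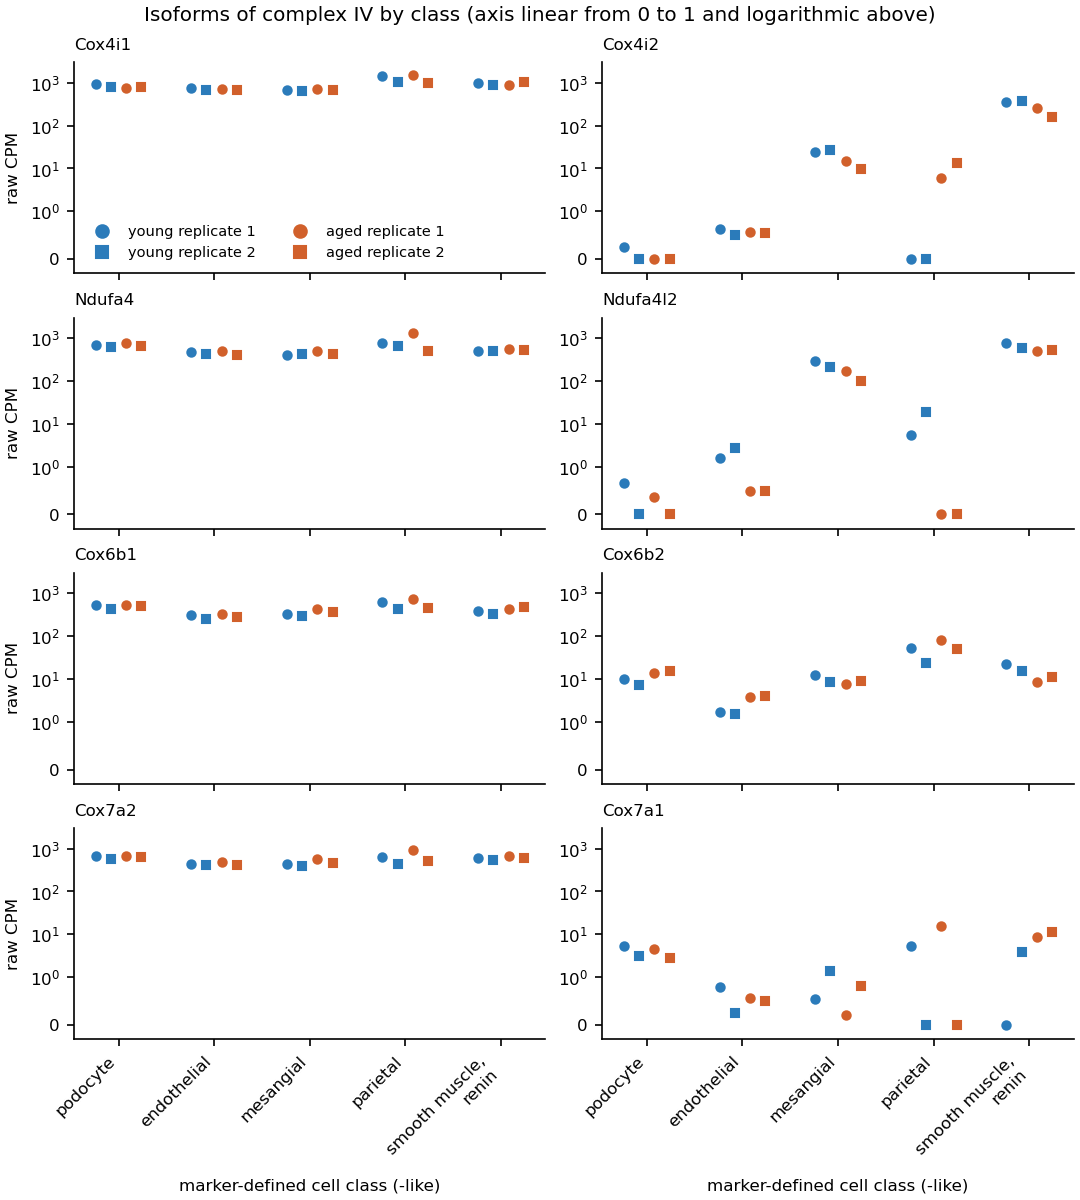
Raw CPM (linear from 0 to 1, logarithmic above) of 4 common complex IV genes (left) and their restricted relatives (right) in 5 marker-defined classes, each point 1 library. Cox4i2 and Ndufa4l2 lie near 0 in podocyte-like and endothelial-like cells and at 156 to 382 and 485 to 761 in smooth muscle and renin-like cells.

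In mesangial-like cells 14 members differed with age, a share of those tested close to the share of all genes called in either direction there. This class had the most calls over all genes too, 1593 against 628 in podocyte-like and 790 in endothelial-like cells. The question was which members differed between young and aged glomeruli, and it was put to UMIs summed per library and class with edgeR's quasi-likelihood test over all genes, Benjamini-Hochberg adjusted, with members called at an adjusted p under 0.05. Of 97 members tested, 13 rose and 1 fell, where 7.03% of all 11604 genes were called higher and 6.70% lower. The median log2 change was 0.28 over the members, against -0.01 over all genes. Nuclear members had a median of 0.24 and mitochondrial members one of 0.41. Both aged libraries were above both young ones for 62 of 97 members and below for 8, where these shares were 27.6% and 30.1% of all genes.

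Among the nuclear subunits of complex V all 15 had a positive log2 change, with a median of 0.36, and 3 rose. In endothelial-like cells all 15 were positive too, with a median of 0.16 and no call. Atp5l (ENSMUSG00000038717, chr9:44912557-44920742), subunit g of the membrane part, was at 134 and 100.3 CPM in the young and 194 and 181 CPM in the aged libraries. Its log2 change was 0.67 (SE 0.16, edgeR adjusted p = 0.0169). Both aged values were above both young ones. Atp5k, subunit e of the same membrane part, went from 66.2 and 56.0 to 86.8 and 87.0 CPM (log2 change 0.50, edgeR adjusted p = 0.0453). Atp5g2, which encodes a copy of the rotor ring subunit c, went from 8.15 and 7.38 to 12.8 and 18.3 CPM (1.00, edgeR adjusted p = 0.0417). The 2 other genes for the same ring protein, Atp5g1 and Atp5g3, had log2 changes of 0.32 and 0.36 that did not pass. Of the 3′ ends of Atp5g2 and Atp5l, 60.4% and 46.1% of 60-base windows also occur in other annotated transcripts, so their counts are less certain.

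Among complex I subunits 4 of 36 rose, with a median log2 change of 0.19. Ndufb2 (ENSMUSG00000002416, chr6:39592574-39603382), an accessory subunit of the membrane arm, was at 124 and 92.9 CPM in young and at 199 and 162 CPM in aged libraries (log2 change 0.72, SE 0.17, edgeR adjusted p = 0.0170). Ndufa1, an X-linked accessory subunit, went from 144 and 124 to 227 and 190.4 CPM (0.64, edgeR adjusted p = 0.0169). Ndufb6 and Ndufc1, also of the membrane arm, rose by 0.48 and 0.47 on the log2 scale (edgeR adjusted p = 0.0429 and 0.0493), from 87.8 and 79.5 to 121 and 113 CPM for Ndufb6. The 9 assembly factors, which help build complex I and are not part of it, had no call: 6 of 9 had a negative log2 change, and their median was -0.20. In complex III, Uqcrfs1 (ENSMUSG00000038462, chr13:30540308-30545362), the Rieske iron-sulfur protein that passes electrons from ubiquinol, was at 80.4 and 80.8 CPM in young and 136 and 114 CPM in aged libraries (0.63, SE 0.15, edgeR adjusted p = 0.0162). It was the only 1 of 8 called, and all 8 had a positive change.

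Complex IV held calls in both directions. Cox6c and Cox7c, small structural subunits, rose from 409 and 352 to 637 and 542 CPM (0.63) and from 227 and 215 to 327 and 317 CPM (0.54). The edgeR adjusted p-values were 0.0200 and 0.0223. Cox4i2 fell from 23.4 and 25.6 to 16.7 and 10.2 CPM (-0.88, SE 0.25, edgeR adjusted p = 0.0404), while Cox4i1 had a log2 change of 0.25 that did not pass. Ndufa4l2 was at 274 and 194 CPM in young and 184 and 106 CPM in aged libraries, and its change of -0.70 did not pass (edgeR adjusted p = 0.0754). Cox6b1, just outside the threshold, had a change of 0.52 (edgeR adjusted p = 0.0503), and Ndufc1, just inside, had an edgeR adjusted p of 0.0493.

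**Figure D3:**
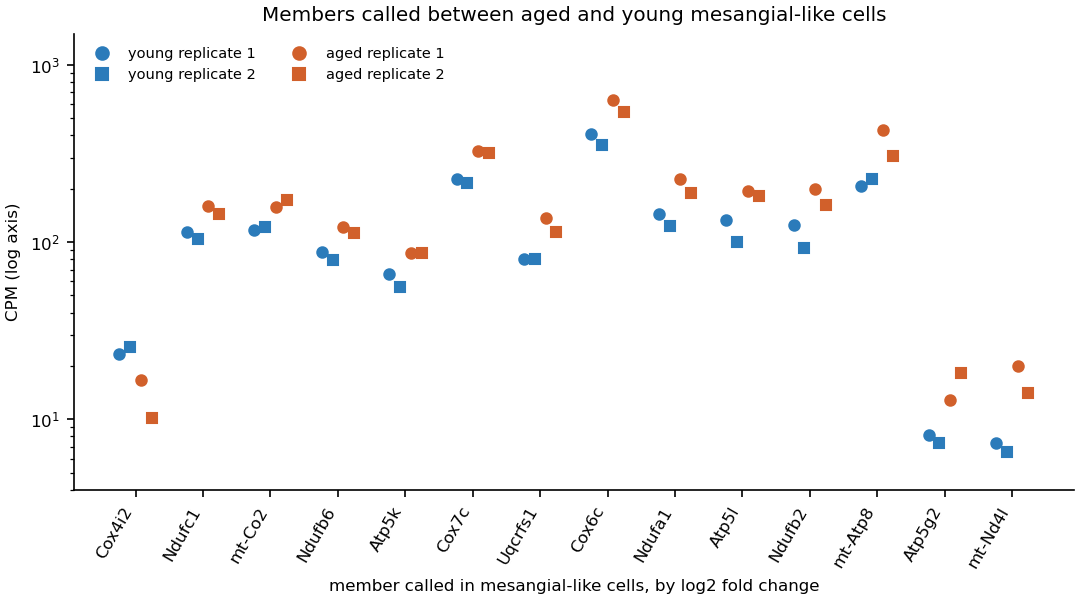
CPM (log axis) of the 14 members called in mesangial-like cells, ordered by log2 change, each point 1 library. Both aged libraries lie above both young ones for 13 genes and below them for Cox4i2 (23.4 and 25.6 against 16.7 and 10.2).

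Several measurements moved with these mesangial-like differences. The young and aged cells lay in different clusters: cluster 10, led by Cxcl13 and Ccl2, held 9.26% and 8.02% of young and 96.7% and 97.6% of aged mesangial-like cells, and cluster 14, led by Gucy1a3 and Sfrp2, held nearly all the others. Within cluster 10, nuclear members took 2.04% of non-mitochondrial UMIs in the 34 cells of young replicate 1, while the 2 aged libraries had 1.94% and 1.73%. Young replicate 2 had 19 cells there, too few to count. Within cluster 14 they took 1.76% and 1.59% in the young libraries and 1.81% in the 23 cells of aged replicate 1. In cluster 10 the 1 young value was the highest of the 3. Endothelial markers, 8 in all, summed to 3445 and 3330 raw CPM in young and 1017 and 1136 in aged mesangial-like cells, and podocyte markers to 438 and 807 against 266 and 238. Parietal epithelial markers summed to 167 and 189 in young and 419 and 532 in aged libraries, with Pax8, Dkk3, Krt8 and Krt18 at 0. Cells with over 10% mitochondrial UMIs made up 3.0%, 1.69%, 9.86% and 11.6% of the class across the 4 libraries. Ribosomal protein genes, looked at after the members, rose in 26 of 76 cases with a median of 0.44. The part of these measurements in the members' differences was not tested.

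The size of the mesangial-like differences also turned on scaling and on the young libraries. Scaling by total UMIs only was an alternative chosen after seeing the data. It moved the median of all genes from -0.01 to -0.20 and that of the members from 0.28 to 0.08. A change of scale shifts all genes by nearly the same amount, so the gap between these medians cannot test the scaling. On the scale of total UMIs 3 members were called higher and 2 lower, and 60 of 97 had a positive change. Of the calls over all genes there, 26.4% were higher, against 51.2% with the main scaling. Without young replicate 2, no member was called, with 1 young library left, and the medians were 0.17 for nuclear and 0.29 for mitochondrial members. The fitted log2 changes without it were 0.84 for mt-Atp8, 0.64 for Uqcrfs1, 0.49 for Atp5l, 0.54 for Ndufb2 and -0.81 for Cox4i2, each in the same direction. Without young replicate 1 no member was called either, and without aged replicate 2 there were 45 calls.

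**Figure D4:**
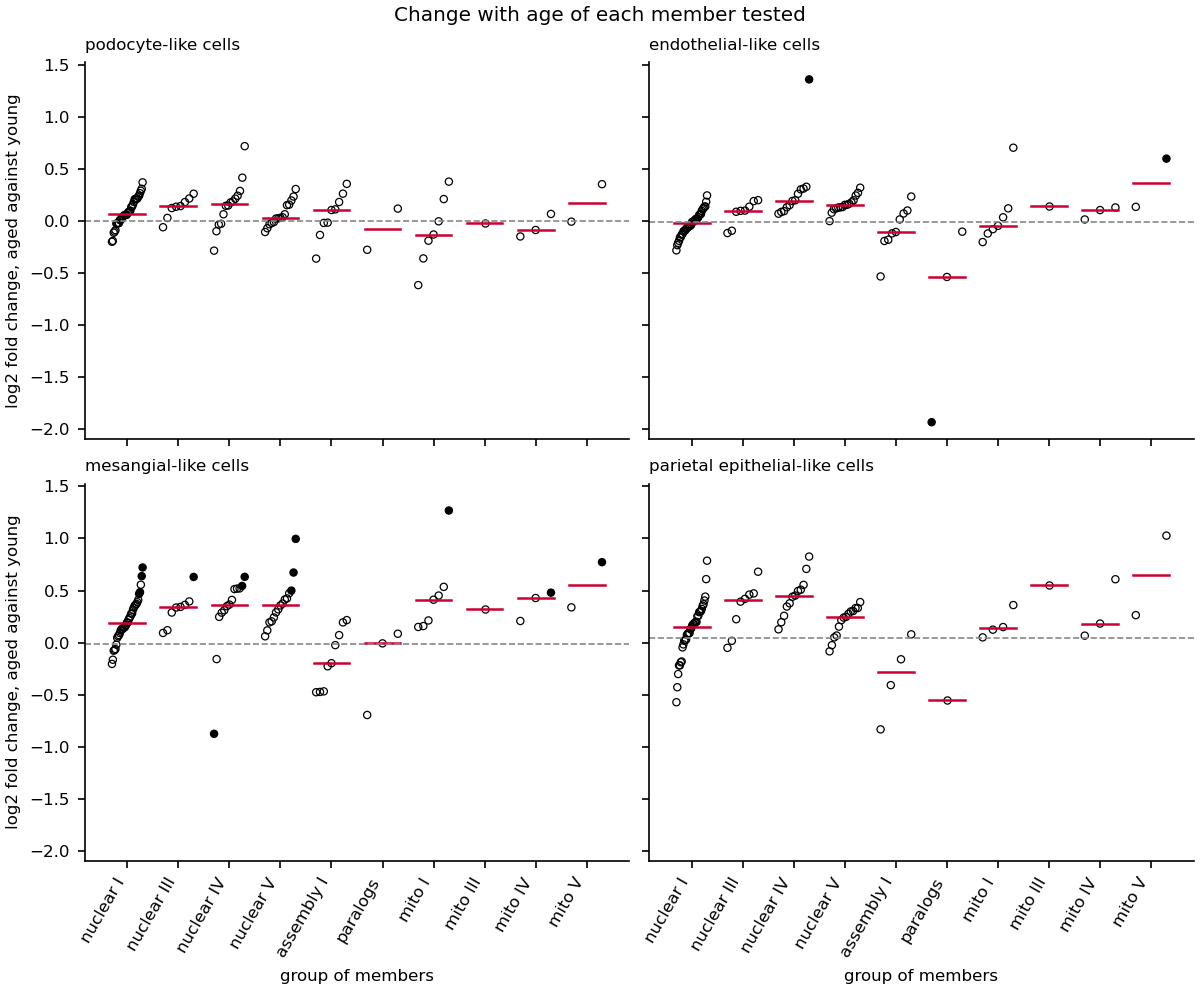
Log2 fold change (aged against young) of every member tested, by genome and complex, in the 4 glomerular classes. Filled points passed the test, red bars are group medians and the dashed line is the median of all genes. Nuclear complex V subunits all lie above 0 in mesangial-like (median 0.36) and in endothelial-like cells (median 0.16). No point is filled in podocyte-like or parietal epithelial-like cells.

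Upstream sequence was looked at for the nuclear members after 10 of them were called higher in mesangial-like cells. Whether their changes have a shared cause was not tested. RefSeq start sites (GRCm38.p6) were matched for 71 of the 89 nuclear members, and 250 bases upstream were searched on both strands. The site of NRF1, a factor known to drive respiratory genes, was searched as CGCATGCG and was found in 7 of 71 members (9.86%) against 1.58% of 27025 promoters. The ETS site bound by GABPA (NRF2), searched as CCGGAAG, was found in 12 (16.9%) against 7.05%, and the ERR site TCAAGGTCA in 1 (1.41%) against 0.366%. The YY1 letters AAGATGGCG were found in 0 members against 0.607% of promoters, and the SP1 letters GGGCGG in 28 (39.4%) against 32.9%. Of the 10 nuclear members that rose in mesangial-like cells 9 had a matched start, 3 of which held the NRF1 letters (Atp5k, Atp5l and Atp5g2) and 2 the GABPA letters (Ndufb6 and Atp5l). A match of letters is a description and not a bound site. The 4 stretches below, from upstream of called genes, show a promoter with the letters of both NRF1 and GABPA, one with those of GABPA and a pair with those of neither. They are written 5′ to 3′ on the gene's strand, without annotated exons, with NRF1 and GABPA letters in capitals (CTTCCGG is the GABPA motif read on the other strand). SP1 letters, which Ndufb6 also holds at 2 places, are left in lower case.
Atp5l, chr9:44920752-44920992, minus strand: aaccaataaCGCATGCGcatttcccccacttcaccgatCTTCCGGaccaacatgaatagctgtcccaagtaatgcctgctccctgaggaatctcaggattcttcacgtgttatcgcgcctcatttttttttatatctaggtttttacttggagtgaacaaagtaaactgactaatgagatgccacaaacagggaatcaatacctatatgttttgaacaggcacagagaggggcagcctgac
Ndufb6, chr4:40279422-40279671, minus strand: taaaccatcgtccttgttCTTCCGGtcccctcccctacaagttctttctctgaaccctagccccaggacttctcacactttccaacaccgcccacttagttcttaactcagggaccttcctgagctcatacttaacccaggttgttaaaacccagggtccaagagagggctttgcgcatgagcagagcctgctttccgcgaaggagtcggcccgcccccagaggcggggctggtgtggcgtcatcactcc
Uqcrfs1, chr13:30545363-30545566, minus strand: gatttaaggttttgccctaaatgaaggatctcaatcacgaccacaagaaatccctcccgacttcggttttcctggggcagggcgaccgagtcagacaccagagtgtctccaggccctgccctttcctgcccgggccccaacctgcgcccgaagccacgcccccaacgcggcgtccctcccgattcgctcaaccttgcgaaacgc
Cox6b2, chr7:4753095-4753225, minus strand: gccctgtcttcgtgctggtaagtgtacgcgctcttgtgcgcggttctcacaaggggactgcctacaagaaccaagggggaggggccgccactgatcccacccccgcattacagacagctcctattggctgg

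Mitochondrial messages are cut from long shared transcripts. In mesangial-like cells 3 of the 13 mitochondrial members rose, and the 13 log2 changes were all positive but ran from 0.15 to 1.27. The short reading frame mt-Atp8 (chrM:7766-7969), which encodes a small subunit of complex V, was at 206 and 226 CPM in young and 432 and 306 CPM in aged libraries (log2 change 0.77, SE 0.18, edgeR adjusted p = 0.0132). Its partner mt-Atp6, which shares a transcript with it and overlaps its last bases, was at 1052 and 939 in young and 1244 and 1272 CPM in aged libraries (0.34) and did not pass (edgeR adjusted p = 0.184). The other overlapping pair showed the same order: mt-Nd4l (chrM:9877-10173) rose from 7.36 and 6.51 to 19.9 and 14.2 CPM (1.27, SE 0.29, edgeR adjusted p = 0.0141), and mt-Nd4 had a change of 0.15 that did not pass (edgeR adjusted p = 0.626). In both pairs the upstream, shorter reading frame had the larger change. The frames of a pair share a transcript, so their counts do not stand for separate messages. The difference within a pair was not tested. mt-Co2, a catalytic subunit of complex IV, rose from 116 and 122 to 158 and 174 CPM (0.48, edgeR adjusted p = 0.0411).

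mt-Atp8 was also called in endothelial-like cells. In endothelial-like cells mt-Atp8 was at 159 and 178 CPM in young and 289 and 223 CPM in aged libraries (0.60, SE 0.16, edgeR adjusted p = 0.0262), and mt-Atp6 had a change of 0.14. In podocyte-like cells mt-Atp8 stood at 202 and 213 against 282 and 249 CPM (0.36, edgeR adjusted p = 0.119), and in parietal epithelial-like cells at 261 and 336 against 823 and 397 CPM (1.03, edgeR adjusted p = 0.508). Both aged libraries were above both young ones in all 4 classes, but the difference passed only in endothelial-like and mesangial-like cells, and a difference between classes was not called for mt-Atp8. mt-Nd1, the first complex I gene of the mitochondrial genome, had the opposite sign in podocyte-like cells, with 1534 and 1389 against 1044 and 1237 CPM (-0.36, edgeR adjusted p = 0.174). Reads of mt-Co1, mt-Co2, mt-Co3, mt-Atp6, mt-Nd3 and mt-Nd4l could be shared with nuclear copies of mitochondrial DNA, as over 50% of their 3′ windows, 60 bases each, recur in annotated pseudogenes (98.7% for mt-Nd4l and 100% for mt-Co2). For mt-Nd1, mt-Nd4, mt-Nd6 and mt-Cytb that share was 0.

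**Figure D5:**
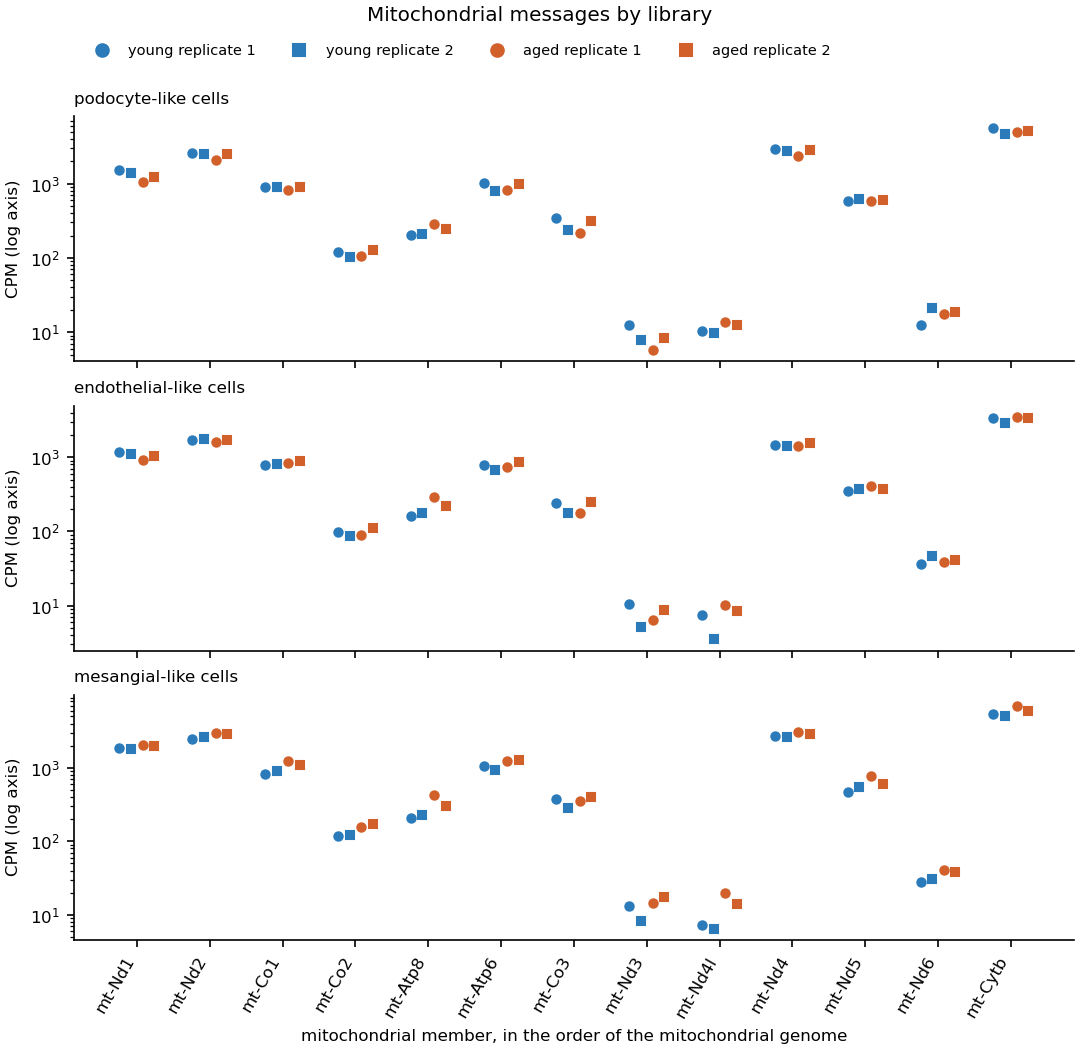
CPM (log axis) of the 13 mitochondrial members in podocyte-like, endothelial-like and mesangial-like cells, in genome order, each point 1 library. mt-Atp8 lies higher in both aged than in both young libraries in all 3 classes (206 and 226 against 432 and 306 CPM in mesangial-like cells).

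In endothelial-like cells the members' median change stayed close to that of all genes, and a smaller part of them separated the libraries by age. Of 96 tested, 2 rose and 1 fell, where 4.0% and 2.01% of 13141 genes did. Their median log2 change was 0.07 against -0.01, with 0.07 for nuclear and 0.11 for mitochondrial members. The nuclear subunits differed by complex, with medians of -0.02 for I, 0.10 for III, 0.20 for IV and 0.16 for V. All 12 tested subunits of IV and all 15 of V had a positive change, against 16 of 36 of complex I. Both aged libraries were above both young ones for 14 of 96 members and below for 8, smaller parts than the 24.5% and 24.4% of all genes. Beside mt-Atp8, Cox6b2 rose from 1.74 and 1.40 to 4.03 and 4.23 CPM, counted from 11, 6, 62 and 66 UMIs (1.36, SE 0.37, edgeR adjusted p = 0.0308). Ndufa4l2 fell from 1.58 and 2.57 to 0.520 and 0.513 CPM, counted from 10, 11, 8 and 8 UMIs (-1.93, SE 0.51, edgeR adjusted p = 0.0263). Mesangial-like cells of the same libraries held Ndufa4l2 at 274, 194, 184 and 106 CPM, and 7 mesangial markers summed to 41.0, 64.5, 103 and 116 raw CPM in the endothelial-like class. The part of mesangial RNA in the endothelial-like difference was not tested. None of the 3 calls was made without young replicate 2, where the nuclear median was -0.07, nor without young replicate 1 or aged replicate 1. With total UMIs as the scale the median of all genes was -0.13, the members' medians turned to -0.05 for nuclear and -0.01 for mitochondrial genes, and 1 member was called, lower. The share of all UMIs taken by mitochondrial members was likewise below both young values in both aged libraries.

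In podocyte-like cells no member was called among 97 tested with edgeR, 8 had an unadjusted p under 0.05, and DESeq2's Wald test called none. Over all 10866 genes, 3.87% were called higher and 1.91% lower. The median change was 0.09 for nuclear and -0.02 for mitochondrial members. The class joined clusters 2 and 8, and cluster 8 held 45.6% and 29.1% of young and 26.8% and 23.9% of aged cells. In cluster 8 mitochondrial members took 2.05% and 2.06% of UMIs in young and 2.20% and 2.49% in aged libraries. In cluster 2 they took 1.33% and 1.33% against 1.16% and 1.28%. The part of this mix in the medians was not tested. Both aged libraries were above both young ones for 24 members and below for 5, against 23.3% and 22.7% of all genes. Cox6b2 came nearest to a call, with 10.2 and 6.88 CPM in young and 14.0 and 15.9 CPM in aged libraries (0.72, SE 0.23, edgeR adjusted p = 0.0653). Members with the highest counts did not pass, such as Cox8a of complex IV (1622 and 1227 against 1580 and 1651 CPM) and Atp5b, the catalytic beta subunit (671 and 526 against 575 and 610 CPM). The same held for Ndufa13 and Ndufb9 of complex I, Uqcrh and Uqcrb of complex III, Cox4i1 and Atp5h, in all 3 of the podocyte-like, endothelial-like and mesangial-like classes. Both young libraries weighed on this class: without young replicate 1 there were 18 calls and a nuclear median of 0.28, and without young replicate 2 there were 5 calls and a nuclear median of -0.05.

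In parietal epithelial-like cells no member was called among 85 tested, 1 had an unadjusted p under 0.05, and DESeq2 called none. No gene was called at all (0% of 4579 genes), and 409 had an unadjusted p under 0.05. Both aged libraries were above both young ones for 5 members and below for 3, against 21.9% and 18.7%. With 34 to 87 cells a library, the depth limits what could be detected. The median change was 0.20 for nuclear and 0.22 for mitochondrial members. Without young replicate 2 no member was called and these medians were 0.0023 and 0.14, without aged replicate 1 they turned to -0.23 and -0.11, and without aged replicate 2 there were 5 calls.

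Whether members responded differently between classes was tested as an interaction of age and class, with the library as a block. Between podocyte-like and endothelial-like cells 2 of 97 members differed, where 5.63% of 13013 genes did. Both were complex I subunits: Ndufa8, of the intermembrane space side, with a log2 difference of 0.47 (SE 0.11, edgeR adjusted p = 0.0148), and Ndufc2, with one of 0.42 (edgeR adjusted p = 0.0299). Ndufa8 was at 170.2 and 144 against 190.2 and 176 CPM in podocyte-like cells and at 220 and 198 against 174 and 170.4 CPM in endothelial-like cells. Neither gene passed within either class. Between endothelial-like and mesangial-like cells 3 of 97 differed, where 8.13% of genes did. Ndufb2 and Ndufc1 had log2 differences of -0.57 and -0.54 (edgeR adjusted p = 0.0115 and 0.0193), lower in endothelial-like cells. Cox6b2 had one of 1.54 (edgeR adjusted p = 0.0352). Between podocyte-like and mesangial-like cells edgeR called 0 of 99 members, with 21 at an unadjusted p under 0.05, where 4.67% of genes were called. The median difference was -0.22 there, against 0.03 over all genes. The larger number of calls in mesangial-like cells is therefore not shown to be a difference from podocyte-like cells for any single member.

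Genes of the same pathway outside the rule were read from the same fits. Their counts stand beside the 7.03% of all genes called higher and 6.70% called lower in mesangial-like cells, and none of these lists was tested as a list. In mesangial-like cells none of the 4 complex II genes, 5 electron carriers or 13 tricarboxylic acid cycle genes tested was called, and 1 of 41 further assembly factors rose, the copper chaperone Cox17 (62.3 and 62.5 to 93.3 and 87.2 CPM, log2 change 0.53). Of 13 import and carrier genes 2 rose, the phosphate carrier Slc25a3 (0.65) and the adenine nucleotide carrier Slc25a5 (0.62). Of 16 glycolysis genes 4 rose and none fell: the glucose transporter Slc2a1 (1.11), the hexokinase Hk2 (2.02), Aldoa (0.78) and Pgk1 (0.60). Hk2 went from 1.58 and 0.868 to 5.41 and 5.35 CPM. Ppargc1a, the coactivator known to drive mitochondrial biogenesis, was the 1 called of 20 regulators, and it fell from 4.21 and 5.21 to 1.08 and 0.345 CPM (-2.72, SE 0.56, edgeR adjusted p = 0.00853). That rests on 16, 12, 5 and 2 UMIs. Nrf1, Gabpa, Tfam and Esrra did not pass, with changes of -0.32, -0.22, 0.01 and 0.52. In podocyte-like cells 1 of these pathway genes was called, Ldha of glycolysis (0.47, edgeR adjusted p = 0.0273), and in endothelial-like and parietal epithelial-like cells none was.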

How the data were processed

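The deposited files hold raw UMI counts per gene and barcode, 1 matrix per library, with no normalization. The labels' protocol names Cell Ranger 3.1.0 and the submitters' processing notes Cell Ranger 6.0.1 and Partek, both with GRCm38, and the annotation release is not given in the sources used here. Barcodes with at least 500 genes and at most 20% mitochondrial UMIs were kept, and the highest Scrublet scores were removed as doublets at 0.8% per 1000 barcodes. Scrublet's own threshold marked only 1 to 119 barcodes a library. Cells were clustered with scanpy 1.11.5 and leidenalg 0.10.2 on 2000 variable genes without the members, 30 components and resolution 1. A cluster was named from fixed marker lists if at least 3 markers were detected and their levels, each relative to its best cluster, averaged at least 0.35. No unrelated type could reach 0.25 of that average with 3 markers detected. Single cells that carried markers of an unrelated type were then left out. These were 5.62% of kept barcodes in young replicate 2 and 0.751% to 0.814% in the other libraries. These thresholds were set after seeing the data.

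Counts were summed per library and class (at least 20 cells), normalized with TMM, filtered with filterByExpr and tested with edgeR 4.0.16 in R 4.3.3. CPM are these sums after TMM, and raw CPM are not scaled by TMM. The tests were checked on simulated data with 200 changed genes. Of 1.5-fold changes, the age test recovered 33.3% for podocyte-like, 33.3% for endothelial-like, 18.2% for mesangial-like and 0% for parietal epithelial-like cells. Of 4-fold changes it recovered 100%, 98.4%, 100% and 57.9%. The interaction test recovered 8.06% to 23.9% of 1.5-fold changes, with the unchanged class simulated without spread between libraries beyond counting. With 2 libraries against 2 an exact permutation test cannot go below p = 0.333, so none was used. Alternatives were other scalings, no filter on low counts, other limits on cells, DESeq2 1.42.0, a replicate block and leaving out each library. Named genes were all mitochondrial members, up to 4 called members per class and direction, the highest 2 per nuclear complex, isoform pairs, up to 3 interaction calls per pair and 11 genes outside the rule. Other called members, Cox7b2 and the called pathway genes were named after their values were seen. The members and lists were chosen with earlier results of these data known. Transcripts for the shared windows came from GENCODE vM21, to which 52489 gene IDs matched.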

Additional observations from a re-analysis of the deposited data

Results flagged for a closer look

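In 5 cases the age difference of a member itself differed between cell classes by the interaction test, edgeR's quasi-likelihood test with Benjamini-Hochberg adjustment. For podocyte-like against endothelial-like cells these were Ndufa8, with a log2 difference of 0.47 (adjusted p = 0.0148), and Ndufc2, with one of 0.42 (adjusted p = 0.0299). For endothelial-like against mesangial-like cells they were Cox6b2, with a log2 difference of 1.54 (adjusted p = 0.0352), Ndufc1, with one of -0.54 (adjusted p = 0.0193), and Ndufb2, with one of -0.57 (adjusted p = 0.0115). Cox6b2 rests on 6 to 66 UMIs a library in endothelial-like cells and 18 to 54 in mesangial-like cells. Without young replicate 2 none of the 5 was called, with adjusted p-values of 0.115, 0.186, 0.0922, 0.0593 and 0.0772 in the order given.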

How the results depend on the processing

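Counts of called members moved most. In mesangial-like cells the 14 calls became 9 with upper quartile scaling, 23 without a filter on low counts, 8 with DESeq2's Wald test and 5 with total UMIs as the only scale, an alternative chosen after seeing the data. Leaving out 1 library gave 0 to 45, with 0 without either young library and 45 without aged replicate 2. In endothelial-like cells the 3 calls became 0 without a filter, 1 with DESeq2, 1 with total UMIs and 0 to 1 without a library. In podocyte-like cells the count of 0 became 1 without a filter and 0 to 18 without a library, and in parietal epithelial-like cells 0 to 5.

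The interaction calls for podocyte-like against endothelial-like cells went from 2 to 1 without a filter, 4 with total UMIs, 0 without the library block and 0 to 4 without a library. For podocyte-like against mesangial-like cells the 0 became 1 without a filter, with at most 10% mitochondrial UMIs, with the members used in clustering and with total UMIs, and 0 to 7 without a library. For endothelial-like against mesangial-like cells the 3 became 5 with no mitochondrial limit, 0 without the library block and 0 to 11 without a library.

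The nuclear median of log2 changes ranged, without 1 library, from 0.17 to 0.35 in mesangial-like cells, from -0.0492 to 0.28 in podocyte-like cells, from -0.0695 to 0.24 in endothelial-like cells and from -0.23 to 0.54 in parietal epithelial-like cells. The podocyte-like and endothelial-like signs turned without young replicate 2, and the endothelial-like (-0.0073) and parietal epithelial-like signs turned without aged replicate 1. The mitochondrial median ranged from 0.29 to 0.43, from -0.17 to 0.0258, from -0.0158 to 0.23 and from -0.11 to 0.51 in the same order, with the endothelial-like sign turned without aged replicate 2 and the podocyte-like and parietal epithelial-like signs turned without aged replicate 1. With total UMIs the nuclear median was 0.0506 in mesangial-like cells and turned to -0.0503 in endothelial-like cells, and the mitochondrial median was -0.0140 in endothelial-like cells, where the sign turned, and -0.0740 in podocyte-like cells. At most 10% mitochondrial UMIs gave mitochondrial medians of -0.0792 in podocyte-like and -0.11 in parietal epithelial-like cells. No mitochondrial limit gave 0.0054 and -0.14. The parietal epithelial-like sign turned under both settings and the podocyte-like sign with no limit. The cause of these shifts was not tested.

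The labels do not tie replicate numbers to a shared animal or day, and deviations of samples with the same number correlated at 0.01 to 0.43. With a replicate block 37 members were called in mesangial-like cells, 4 in endothelial-like cells, 2 in podocyte-like cells and 0 in parietal epithelial-like cells. All 14 mesangial-like calls were kept under the block, 12 with DESeq2 size factors and 4 with total UMIs. Of 1673 values of named members under settings that keep all libraries, 1604 kept their side of the threshold, 43 lost and 26 gained a call. None that was called in either fit turned sign. For members called in neither fit the sign was not compared. Limiting mesangial-like cells to clusters with 20 cells in every library gave no value, since no cluster met it. Depth limits the rare isoforms, and 2 libraries an age limit all tests.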

Other observations

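Classes outside the glomerular tuft gave further values, which were not tested. Smooth muscle and renin-like cells, 40 to 90 a library, held nuclear members at 2.55%, 2.37%, 2.48% and 2.29% of UMIs and mitochondrial members at 2.30%, 2.26%, 1.90% and 2.21%, in the order young replicates 1 and 2, aged replicates 1 and 2. Tubule-like cells were found only when the limit on mitochondrial UMIs was lifted, 35 to 268 a library, and held 5.50% to 6.51% nuclear and 8.86% to 10.9% mitochondrial members. Cox6a2, the muscle isoform of complex IV subunit 6a, had no UMI in the glomerular classes but 38 and 6 UMIs in the 70 and 24 neutrophil-like cells of the aged libraries, or 304.5 and 106 raw CPM. This gene was singled out after its values were seen.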
